A study of Homo sapiens with 6 samples.

Results

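The RTL1-antisense miRNAs are the mature products of 5 hairpins, MIR431, MIR433, MIR127, MIR432 and MIR136, which lie in the imprinted 14q32 region on the strand opposite to the coding sequence of RTL1. They were taken by name from a count table of 2656 mature miRNAs, which held all 10 arms (a 5p and a 3p arm for each hairpin). The counts came from small RNA sequencing of K562, an established human erythroleukaemia line that the labels class as myeloblast, in 2 forms. One form was sensitive to azacitidine, a cytidine analogue that traps DNA methyltransferases and so lowers DNA methylation. The other was resistant after more than 4 months of exposure to increasing doses of the drug. There were 3 biological replicates of each form, by the labels, grown in the same RPMI medium with serum and antibiotics. The labels do not say whether the drug was present at harvest, do not explain the letters NT in the library names, and name neither separate selections nor separate cultures of the resistant cells. The p-values below therefore cover the spread between these libraries, which may be partly technical, and changes that arose by chance in 1 resistant population cannot be told apart from changes tied to resistance.

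The 14q32 region is imprinted: DLK1 and RTL1 are expressed from the paternal chromosome, and the non-coding RNAs MEG3 and MEG8 and the miRNAs from the maternal one, under the control of methylated regions between DLK1 and MEG3. RTL1 is a gene derived from a retrotransposon that is needed in placenta and muscle. Because these hairpins are transcribed antisense to RTL1, each mature arm is fully complementary to RTL1 mRNA, and in mice several of them guide its cleavage. From each hairpin the arm loaded into Argonaute accumulates, and the other arm is mostly degraded, so the ratio of the arms reports on processing and loading after the hairpin is made.

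The mature sequences are given because complementarity to RTL1, base composition and seed set these arms apart from each other. All 10 were found in the RefSeq table (GRCh38.p14). They are printed 5′ to 3′, with the seed (bases 2 to 8, the stretch that pairs with most targets) in capitals.
hsa-miR-431-5p: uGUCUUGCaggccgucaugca
hsa-miR-431-3p: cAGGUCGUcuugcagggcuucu
hsa-miR-433-5p: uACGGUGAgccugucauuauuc
hsa-miR-433-3p: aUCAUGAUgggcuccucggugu
hsa-miR-127-5p: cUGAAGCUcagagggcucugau
hsa-miR-127-3p: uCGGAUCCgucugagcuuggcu
hsa-miR-432-5p: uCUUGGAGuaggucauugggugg
hsa-miR-432-3p: cUGGAUGGcuccuccaugucu
hsa-miR-136-5p: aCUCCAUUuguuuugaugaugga
hsa-miR-136-3p: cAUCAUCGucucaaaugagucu
The 10 arms have 10 different seeds, and no other miRNA of the count table with a known sequence shares any of them. Of the 2656 miRNAs, 2367 had a known sequence, and among these the nearest other miRNA was 7 or 8 edits away from each arm. The reverse complement of each arm was found in the RTL1 transcript of GENCODE 29. GC content ran from 34.8% in miR-136-5p and 40.9% in miR-136-3p to 59.1% in miR-431-3p and miR-127-3p.

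All 5 hairpins lie on the plus strand of chromosome 14 (GRCh38) within 3777 bases. MIR431 is at 100881007 to 100881120, MIR433 at 100881886 to 100881978, MIR127 at 100882979 to 100883075, MIR432 at 100884483 to 100884576 and MIR136 at 100884702 to 100884783. Each lies wholly inside the coding block of RTL1 (100880715 to 100884788, minus strand, part of 1 exon), and outside the annotated MEG3 and MEG8 genes. Read along RTL1, MIR136 comes first, at coding bases 6 to 87, and MIR432 follows at 213 to 306, only 125 bases away. MIR431 is the last, at coding bases 3669 to 3782. The hairpins of the highest and of the lowest GC content among the 4 in the RefSeq hairpin table are shown with their arms in capitals, since the arms of MIR431 share a stretch of 10 bases, GUCUUGCAGG, and those of MIR136 are the arms that differed most between both forms of the line.
MIR431: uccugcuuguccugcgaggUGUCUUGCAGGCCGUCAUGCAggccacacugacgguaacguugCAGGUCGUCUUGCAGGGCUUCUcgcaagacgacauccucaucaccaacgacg
MIR136: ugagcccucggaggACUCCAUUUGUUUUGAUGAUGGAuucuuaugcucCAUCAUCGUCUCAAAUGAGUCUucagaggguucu

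**Figure D1:**
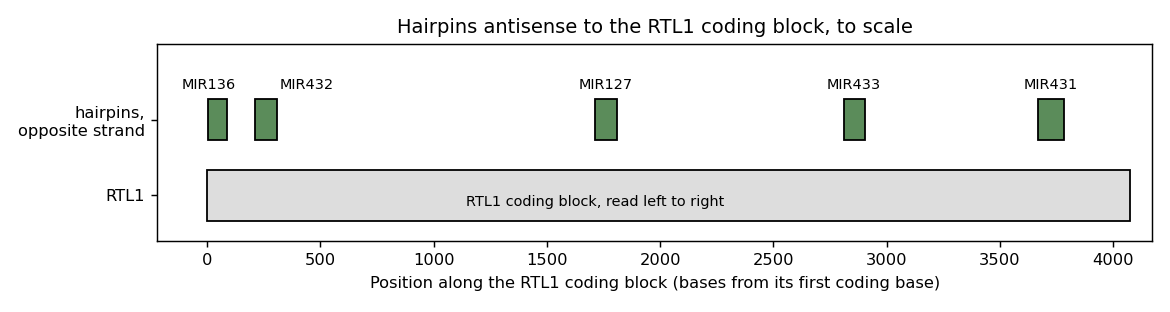
Position of the 5 hairpins (green, opposite strand) along the RTL1 coding block (grey), in bases from its first coding base, to scale. MIR136 (bases 6 to 87) and MIR432 (bases 213 to 306) sit side by side at the start of the block, and MIR127, MIR433 and MIR431 are spread over the rest.

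Library totals ran from 3291500 to 12563945 counts, and 768 miRNAs passed the filter on low counts, all 10 arms among them. Resistant replicate 3 stood apart from the other libraries. Its Pearson correlation with resistant replicate 1 was 0.875 and with resistant replicate 2 was 0.864 (log2 CPM over tested miRNAs), against 0.995 between those libraries. In it miR-92a-3p held 58.6% of the counts, against 10.5% to 20.2% elsewhere, and 9 listed annotations that resemble fragments of other RNAs held 4.96%, against 1.01% to 1.69%. Fold changes and arm ratios are therefore given with and without it. All 7 listed blood cell miRNAs, myeloid and erythroid, were detected in every library (1.67% to 1.94% of the counts of sensitive and 2.60% to 5.02% of resistant libraries), while the 7 listed miRNAs of liver, muscle, neurons, epithelium and pancreas held at most 0.000855%. Most of the blood cell share of resistant replicate 3 was miR-486-5p, with 161152 of its 3291500 counts. Without resistant replicate 3, miR-486-5p, an erythroid miRNA, had a log2 fold change of 1.05 (edgeR adjusted p = 0.00218), and miR-223-3p, a myeloid one, -0.99 (edgeR adjusted p = 0.00733). The other listed erythroid miRNAs were at -0.49 (miR-451a), 0.093 (miR-144-3p) and 0.43 (miR-144-5p). The other myeloid ones were at -0.17 (miR-142-3p) and -0.32 (miR-142-5p), and none of these passed. The part of the blood cell miRNAs in the results below was not tested.

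Together the 10 arms made up 2.37%, 2.25% and 2.37% of the counts in sensitive replicates 1 to 3 and 2.77%, 2.59% and 2.51% in resistant replicates 1 to 3 (the widest exact 95% binomial interval, of resistant replicate 3, ran from 2.49% to 2.52%, and all such intervals cover counting error only). The resistant libraries were all above the sensitive ones, by 0.29 percentage points on average (2.33 ± 0.069% against 2.62 ± 0.14%, SD, n = 3 each). With miR-92a-3p left out of the denominator, the sensitive libraries had shares of 2.52% to 2.76%, and resistant replicates 1 to 3 had 3.48%, 3.14% and 6.06%. The resistant libraries were above the sensitive ones with either denominator, by 1.55 percentage points on average when miR-92a-3p was left out. Resistant replicate 3 was the farthest above in that case. These shares take no TMM scaling, whose factors were 1.18, 1.25 and 0.774 in resistant replicates 1 to 3 and 0.955 to 0.960 in sensitive libraries. In TMM-scaled CPM the most abundant arm, miR-127-3p, overlapped between groups (18271 to 20365 in sensitive and 17563 to 28958.5 in resistant libraries).

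Most of this signal came from 1 arm. In CPM (counts relative to library size, scaled by TMM factors), miR-127-3p stood at 19431 ± 1065 in sensitive cells, followed by miR-136-3p at 2128 ± 479, miR-431-5p at 903 ± 274, miR-136-5p at 726 ± 126, miR-127-5p at 450 ± 30.0, miR-432-5p at 390 ± 36.0 and miR-433-3p at 285 ± 43.0 (SD, n = 3 each). The remaining arms were scarce, with miR-431-3p at 36.7 ± 9.25, miR-433-5p at 4.51 ± 1.28 and miR-432-3p at 3.55 ± 0.674 CPM. In this order miR-431-5p and miR-136-5p overlapped between libraries, as did miR-127-5p and miR-432-5p, and miR-433-5p and miR-432-3p. The arms are all 21 to 23 bases long, so length does not enter these levels, but the ligation of adapters favours some ends over others, and an order of levels between arms carries that preference.

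**Figure D2:**
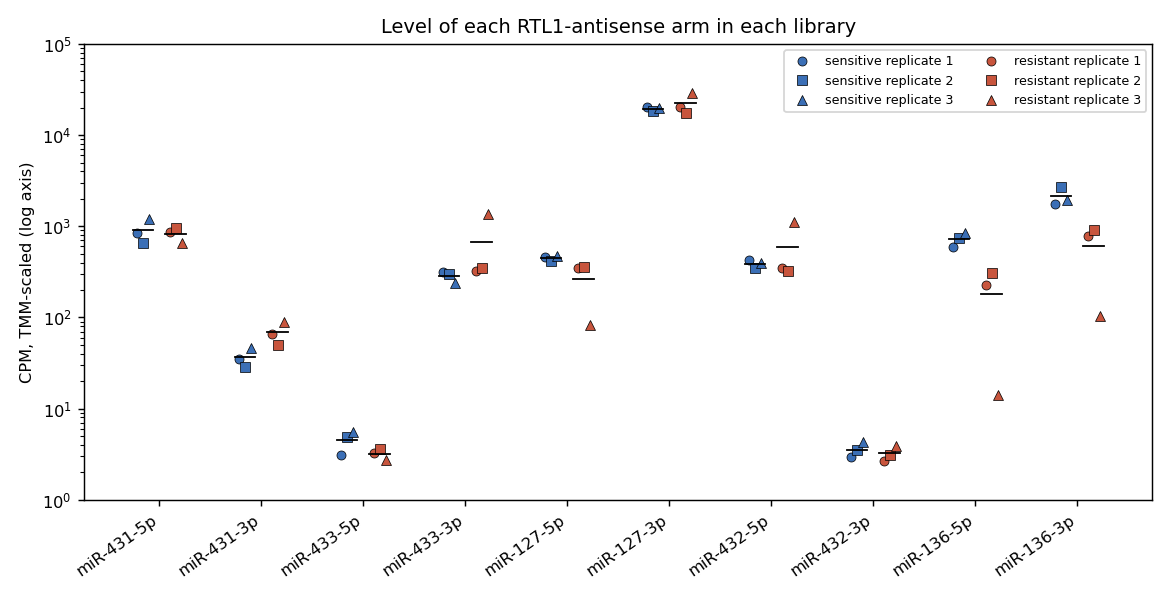
CPM (log axis) of each arm in each of the 6 libraries, blue for sensitive and red for resistant, with the marker shape giving the replicate and a line at each group's mean. Both miR-136 arms are lower in every resistant library, miR-127-3p is the highest arm in each library (17563 to 28958.5 CPM), and resistant replicate 3 (red triangle) departs from the other resistant libraries in miR-433-3p, miR-127-5p, miR-432-5p and both miR-136 arms.

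Over all 10 arms, 0 passed the threshold with the 6 libraries (edgeR quasi-likelihood test, Benjamini-Hochberg over 768 miRNAs, adjusted p under 0.05), where 4.17% of all tested miRNAs did. At an unadjusted p under 0.05 there was 1, miR-136-3p, beside 205 of all 768. DESeq2 also called 0 of the 10 (19.4% of all miRNAs), with 4 at an unadjusted p under 0.05, beside 265 of all 768. Of the 10 log2 fold changes (resistant over sensitive), 4 were positive and 6 negative, with a median of -0.14 beside -0.11 over all tested miRNAs. Without resistant replicate 3 the arms called were the 2 of miR-136, both lower, where 28.1% of 822 tested miRNAs were called and 14.4% were called lower. The median of the 10 arms was then -0.19, beside 0.036 over all.

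miR-136, whose arms have the lowest GC content of the group, was the member with the lowest log2 fold changes. miR-136-5p was at 594, 739 and 845 CPM in sensitive replicates 1 to 3 and at 227, 306.5 and 14.1 CPM in resistant replicates 1 to 3 (36 counts in the last). Every resistant library was below every sensitive one, and resistant replicate 3 was far below the other two. The log2 fold change was -1.99 (SE 0.90, edgeR adjusted p = 0.198) with all libraries. It was -1.39 (SE 0.25, edgeR adjusted p = 0.00171), a 2.62-fold fall, without resistant replicate 3.

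The 3p arm, which is the more abundant one, was lower in the same libraries. miR-136-3p was at 1777, 2673 and 1934 CPM in sensitive and at 783, 915 and 104 CPM in resistant replicates 1 to 3. The groups again did not overlap. Its log2 fold change was -1.82 (SE 0.73, edgeR adjusted p = 0.166) with all libraries and -1.27 (SE 0.23, edgeR adjusted p = 0.00199), a 2.41-fold fall, without resistant replicate 3. Over all settings tried, the edgeR or DESeq2 adjusted p ran from 0.00171 to 0.410 for the 5p arm and from 0.00199 to 0.396 for the 3p arm. Each passed in 2 of the 14, namely without resistant replicate 3 and with no filter on low counts, where 9.34% of 1734 miRNAs were called and 2.71% were called lower. Both arms had negative log2 fold changes under all 14 settings, the 3 scalings included.

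miR-127 carried most of the counts and showed no called change. In human bladder cancer cells this miRNA was reported to be switched on by drugs that remove DNA methylation and block histone deacetylases, and to repress the transcription factor BCL6. miR-127-3p was at 20365, 18271 and 19657 CPM in sensitive and at 20486, 17563 and 28958.5 CPM in resistant replicates 1 to 3. The groups overlapped, and resistant replicate 3 was the library farthest from the rest. The log2 fold change was 0.20 (SE 0.38, edgeR adjusted p = 0.733), and 0.02 (SE 0.17, edgeR adjusted p = 0.949) without resistant replicate 3. With a correction for GC content the sign turned, to -0.51 (edgeR adjusted p = 0.349).

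Its passenger arm had a negative log2 fold change. miR-127-5p was at 455, 418 and 477 CPM in sensitive and at 353, 356 and 82.1 CPM in resistant replicates 1 to 3, so every resistant library was lower. The log2 fold change of -0.77 (SE 0.57, edgeR adjusted p = 0.401) did not pass, nor did -0.29 (SE 0.20, edgeR adjusted p = 0.330) without resistant replicate 3.

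miR-431, which in mouse sensory neurons supports axon growth through the Wnt antagonist Kremen1, had arms that differed in sign. The major arm, miR-431-5p, was at 848, 661 and 1201 CPM in sensitive and at 858, 956 and 661 CPM in resistant replicates 1 to 3. The groups overlapped fully, and its log2 fold change of -0.13 (SE 0.39, edgeR adjusted p = 0.825) became 0.068 when libraries were scaled by their totals and 0.058 (SE 0.26, edgeR adjusted p = 0.911) without resistant replicate 3. The minor arm, miR-431-3p, was at 35.3, 28.3 and 46.6 CPM in sensitive and at 66.5, 49.3 and 89.9 CPM in resistant replicates 1 to 3. Every resistant library was above every sensitive one. The log2 fold change was 0.90 (SE 0.42, edgeR adjusted p = 0.208) with all libraries and 0.71 (SE 0.28, edgeR adjusted p = 0.0793) without resistant replicate 3, where the unadjusted p was 0.0258. It did not pass under any setting tried, and was 0.19 with the GC correction.

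miR-433, reported to repress the deacetylase HDAC6, is made almost wholly as its 3p arm. miR-433-3p was at 318, 299 and 236 CPM in sensitive and at 323, 347 and 1365 CPM in resistant replicates 1 to 3. The groups did not overlap, but resistant replicates 1 and 2 were above the highest sensitive library by small amounts, and resistant replicate 3 set the mean. The log2 fold change was 1.25 (SE 0.62, edgeR adjusted p = 0.231), and 0.29 (SE 0.22, edgeR adjusted p = 0.371) without that library. miR-433-5p had 37, 48 and 30 counts in sensitive and 32, 48 and 7 counts in resistant libraries. Its log2 fold change was -0.46 (SE 0.44, edgeR adjusted p = 0.524), and -0.30 (SE 0.35, edgeR adjusted p = 0.578) without resistant replicate 3.

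miR-432, the neighbour of miR-136, had no called change. miR-432-5p was at 423, 351 and 396 CPM in sensitive and at 348, 323 and 1102 CPM in resistant replicates 1 to 3. Resistant replicates 1 and 2 were just below the lowest sensitive library, and resistant replicate 3 was well above the highest. The log2 fold change therefore changed sign with that library, from 0.60 (SE 0.55, edgeR adjusted p = 0.505) to -0.17 (SE 0.21, edgeR adjusted p = 0.603) without it. miR-432-3p, at 35, 34 and 23 counts in sensitive and 26, 41 and 10 in resistant libraries, had a log2 fold change of -0.16 (SE 0.43, edgeR adjusted p = 0.817), and of -0.22 (SE 0.35, edgeR adjusted p = 0.707) without resistant replicate 3.

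**Figure D3:**
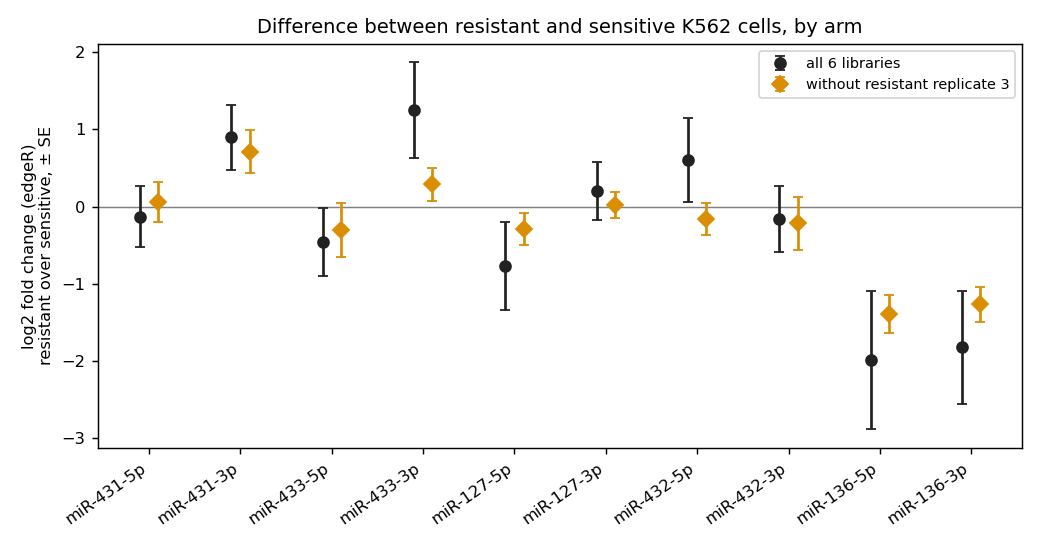
Log2 fold change of each arm, resistant over sensitive, with its SE, from edgeR with all 6 libraries (black) and without resistant replicate 3 (orange). Both miR-136 arms lie at -1.27 or below in each fit, while the positive values of miR-433-3p and miR-432-5p shrink to 0.29 and -0.17 without that library.

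Of the 10 arms, 5 had groups that did not overlap in CPM, where 41.8% of all tested miRNAs did not overlap. They were miR-431-3p and miR-433-3p, higher in resistant libraries, and miR-127-5p and both miR-136 arms, lower. Without resistant replicate 3 miR-432-5p joined them on the lower side, which made 6 of 10, beside 53.0% of all tested miRNAs. These shares are near the background, so the lack of overlap does not set the group apart.

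The composition of the locus could be compared within each library, where scaling plays no part. miR-127 made up 83.9%, 79.7% and 81.2% of the counts of the 5 hairpins in sensitive replicates 1 to 3 and 88.9%, 86.1% and 89.7% in resistant replicates 1 to 3. miR-136 made up 9.55%, 14.6% and 11.2% in sensitive and 4.31%, 5.87% and 0.364% in resistant libraries. Thus in each resistant library a larger part of the reads from this 3777-base stretch came from miR-127 and a smaller part from miR-136. The shares are parts of the same total, so a lower share of miR-136 by itself raises the shares of the other hairpins. The share of miR-433 was also higher in each resistant library, at 1.30%, 1.30% and 0.975% in sensitive and 1.39%, 1.68% and 4.22% in resistant replicates 1 to 3. That of miR-431 overlapped between groups (2.94% to 5.03% against 2.32% to 4.83%), as did that of miR-432 (1.51% to 1.71% against 1.50% to 3.42%). The higher shares of miR-127 and miR-433 are therefore not independent of the lower share of miR-136. In CPM, miR-127-3p overlapped between groups, while miR-433-3p did not. Whether the shares of miR-127 and miR-433 rose apart from the fall of miR-136 was not tested. How often the shares of other groups of hairpins fail to overlap was not tested either.

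Set against its neighbour 125 bases away, miR-136 gave 5.57, 9.61 and 6.94 times the counts of miR-432 in sensitive replicates 1 to 3. In resistant replicates 1 to 3 it gave 2.88, 3.75 and 0.106 times. The mean log2 ratio was lower by 2.78 in resistant libraries, and by 1.13 without resistant replicate 3. The ratios of miR-136 to miR-431, miR-433 and miR-127 were also lower in each resistant library, by 1.31 to 1.58 on the log2 scale without resistant replicate 3. miR-136 was chosen for these ratios after its values were seen, so they are a description with no test.

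The arms of each hairpin kept their order of abundance in all 6 libraries. The 5p arm was the major one of miR-431 and miR-432, and the 3p arm that of miR-433, miR-127 and miR-136. Of the 5 hairpins, 0 had a called difference in the ratio of 5p to 3p (limma on log2 ratios, Benjamini-Hochberg over 206 hairpins), where 1.46% of hairpins were called. At an unadjusted p under 0.05 there were also 0 of the 5, and 15 of the 206. Without resistant replicate 3 again 0 of 5 were called, beside 1.92% of 208.

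The minor arm of miR-431 took 3.99%, 4.10% and 3.74% of the hairpin's counts in sensitive replicates 1 to 3. In resistant replicates 1 to 3 it took 7.20%, 4.90% and 12.0% (exact 95% binomial intervals 6.67% to 7.75%, 4.54% to 5.28% and 10.5% to 13.5%). All resistant libraries were above all sensitive ones, and they differed from each other more than counting error allows. The log2 ratio of 5p to 3p differed by -0.99 (95% interval -2.06 to 0.081, limma adjusted p = 0.410), and by -0.62 (95% interval -1.32 to 0.078, limma adjusted p = 0.454) without resistant replicate 3.

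miR-127 showed the opposite for its minor 5p arm. It took 2.19%, 2.23% and 2.37% of the hairpin's counts in sensitive and 1.69%, 1.99% and 0.283% in resistant replicates 1 to 3, again with no overlap. The log2 ratio of 5p to 3p differed by -1.21 (95% interval -2.96 to 0.53, limma adjusted p = 0.439), and by -0.31 (95% interval -0.94 to 0.33) without resistant replicate 3. Among all 206 hairpins, the groups did not overlap in this ratio for 22.8%, beside 2 of these 5. Without resistant replicate 3 the figures were 31.1% and the same count of 2.

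The arms of miR-136 kept a similar ratio in 5 of the libraries. Its 5p arm took 25.1%, 21.6% and 30.4% of the hairpin's counts in sensitive and 22.5%, 25.1% and 12.0% in resistant replicates 1 to 3. Resistant replicates 1 and 2 lay within the sensitive range, and only resistant replicate 3, with 300 counts for the hairpin, was below it (exact 95% binomial interval 8.55% to 16.2%). The log2 ratio of 5p to 3p differed by -0.14 (95% interval -0.86 to 0.59, limma adjusted p = 0.837) without resistant replicate 3 and by -0.53 (95% interval -1.64 to 0.58) with it. These intervals do not exclude a change of the ratio.

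For miR-433 and miR-432 the minor arm rested on 7 to 48 counts per library. The 5p arm of miR-433 took 0.958% to 2.30% in sensitive and 0.201% to 1.03% in resistant libraries, and the 3p arm of miR-432 took 0.684% to 1.06% and 0.355% to 0.948%. The log2 ratio of 5p to 3p differed by -1.35 for miR-433 (95% interval -2.99 to 0.29) and by 0.48 for miR-432 (95% interval -0.65 to 1.61). The differences were -0.60 (95% interval -1.53 to 0.34) and 0.080 (95% interval -0.66 to 0.82) without resistant replicate 3. In both hairpins resistant replicate 3 had the lowest share of the minor arm.

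**Figure D4:**
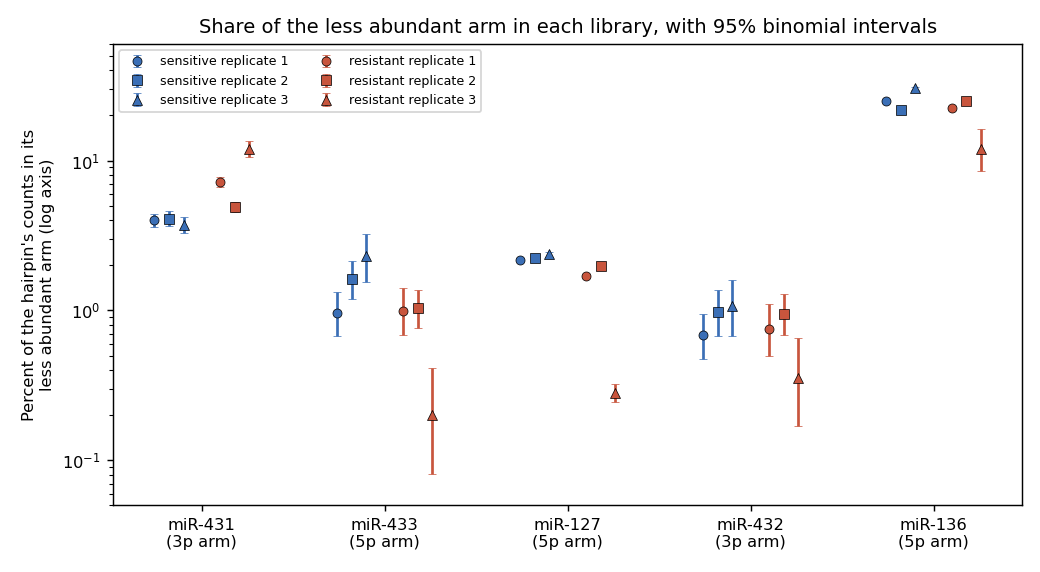
Percent of each hairpin's counts found in its less abundant arm (log axis) in each library, blue for sensitive and red for resistant, with exact 95% binomial intervals. The miR-431-3p share is higher in every resistant library (4.90% to 12.0% against 3.74% to 4.10%), the miR-127-5p share is lower in every one, and resistant replicate 3 is the extreme library for all 5 hairpins.

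Departures of resistant replicate 3 differed with base composition. Against the mean of resistant replicates 1 and 2 on the log2(CPM + 0.5) scale, miR-136-5p and miR-136-3p, the arms lowest in GC, were 4.17 and 3.02 lower in that library. miR-433-3p and miR-432-5p were 2.03 and 1.72 higher. Base composition did not order all arms. miR-433-5p, with a GC content of 45.5%, was only 0.28 lower, but it had just 7 counts in that library, near the floor. miR-127-5p and miR-433-3p both have a GC content of 54.5%, and the first was 2.10 lower while the second was 2.03 higher. Over the 10 arms Spearman's rho of this deviation with GC content was 0.52. Across 677 tested miRNAs with a known mature sequence, it was 0.714 (both are descriptions across miRNAs of 1 library).

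The log2 fold changes between the groups also varied with GC content over the 10 arms, with a Spearman's rho of 0.642 with all libraries and 0.807 without resistant replicate 3 (n = 10 arms that share hairpins and libraries, given as a description). The same relation over all tested miRNAs was not computed, so these values do not show a trait particular to these arms. The 2 miR-136 arms are the lowest of the 10 in GC content and in log2 fold change. With a GC correction in each of the 6 libraries, their log2 fold changes were -1.62 for the 5p arm (edgeR adjusted p = 0.105) and -1.53 for the 3p arm (edgeR adjusted p = 0.0867), where 10.8% of 677 miRNAs were called. The part of base composition in the fall without resistant replicate 3 was not tested.

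**Figure D5:**
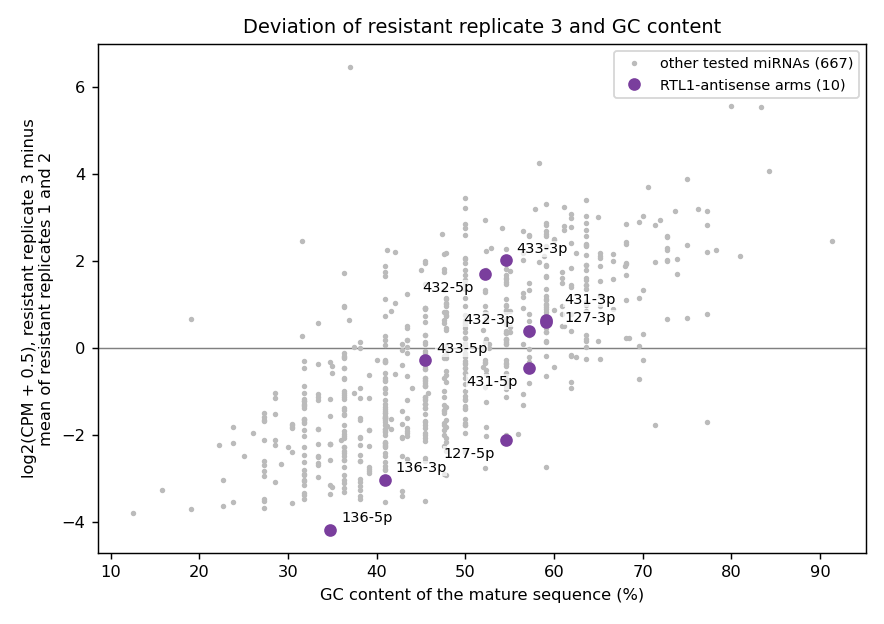
Deviation of resistant replicate 3 from the mean of resistant replicates 1 and 2, on the log2(CPM + 0.5) scale, against the GC content of the mature sequence for 677 tested miRNAs, with the 10 RTL1-antisense arms in purple. The miR-136 arms are the lowest of the 10 arms on both axes, and miR-127-5p and miR-433-3p lie far apart at the same GC content.

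The rest of the 14q32 region gave a wider frame. Of 8 tested arms of its other hairpins outside the cluster from miR-379 to miR-656, such as miR-493, miR-337 and miR-370, 0 were called by edgeR with all libraries, with 1 at an unadjusted p under 0.05 (median log2 fold change -0.54). Of 71 tested arms of the cluster from miR-379 to miR-656 edgeR called 0, with 16 at an unadjusted p under 0.05 (median -0.99, 58 negative). Over all 768 tested miRNAs, 32 were called and 205 were at an unadjusted p under 0.05. With the same libraries DESeq2 called 10 of the 71 lower, edgeR without a filter 7 of 73 and edgeR with the GC correction 2 of 70, while each of these called 0 of the 8. Over all tested miRNAs these settings called 51 of 768, 47 of 1734 and 31 of 677 lower. Without resistant replicate 3, 2 of 8 and 30 of 72 were called lower and 0 higher, with medians of -0.47 and -0.66, beside -0.19 for the RTL1-antisense arms. Over all tested miRNAs, 118 of 822 were then called lower. The 2 of 8, named after their values were seen, were miR-337-3p (-0.70, edgeR adjusted p = 0.0324) and miR-665 (-0.91, edgeR adjusted p = 0.0419). The miR-136 arms were at -1.39 and -1.27 in that fit. Among the most abundant of the other listed 14q32 arms, miR-381-3p had -1.41 (edgeR adjusted p = 0.00238), miR-411-5p -1.27 (edgeR adjusted p = 0.000367) and miR-654-3p -0.67 (edgeR adjusted p = 0.0541). Whether the groups of arms differ from each other was not tested.

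The RTL1-antisense arms held a larger part of the listed 14q32 counts in resistant cells. They made up 11.0%, 11.3% and 8.98% of them in sensitive replicates 1 to 3 and 19.6%, 15.8% and 40.1% in resistant replicates 1 to 3. All resistant libraries were above all sensitive ones (10.4 ± 1.24% against 25.2 ± 13.1%, SD, n = 3 each, and 17.7% over resistant replicates 1 and 2). The other listed arms of the region held between 17.7% and 24.0% of a sensitive library. They held 11.4%, 13.8% and 3.73% of resistant replicates 1, 2 and 3. Since miR-127 held 79.7% to 89.7% of the RTL1-antisense counts in each library, the part held by these arms mainly followed miR-127. The miR-136 arms, which belong to the same group, were themselves lower in resistant libraries. How the part would run without miR-127 was not tested.

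Among 460 other miRNAs that averaged 10 CPM or more, those whose pattern over the 6 libraries was nearest to that of miR-127-3p were miR-505-3p, miR-422a and miR-378a-5p. Likeness was the root mean square difference of centred log2 CPM, which was 0.079, 0.11 and 0.14. Because they were chosen for this likeness, they shared the pattern of miR-127-3p. They differed little between sensitive libraries and resistant replicates 1 and 2 and were highest in resistant replicate 3. miR-505-3p, for example, was at 142, 132 and 149 CPM in sensitive and at 131, 124 and 193 CPM in resistant replicates 1 to 3.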

How the data were processed

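The authors deposited read counts per mature miRNA for 6 K562 libraries, whole numbers with no normalization found in them. GRCh38 is named as the build per the submitters' processing notes. TriPure RNA, treated with DNase, went into NEBNext small RNA libraries read on a NovaSeq instrument, per the labels' protocols. For the aligner, counting program and miRBase release: not given in the sources used here. The counts carry no molecular identifiers.

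Counts were tested with edgeR 4.0.16 (R 4.3.3): filterByExpr (minimum count 10, minimum total 15), TMM factors, quasi-likelihood F test, no covariates, Benjamini-Hochberg over all tested miRNAs, threshold 0.05. SEs are approximate (size of the log2 fold change over the root of F). Arm ratios, log2((5p + 0.5)/(3p + 0.5)), were tested with limma 3.58.1 over hairpins with a mean of at least 10 counts in both arms. DESeq2 1.42.0, RLE factors, library totals, other filters, a GC correction (loess per library), the replicate number as a block and leaving out each library were alternatives. Both tests were tested on simulated data with the same spread in every library. That simulation held no library that stood apart as resistant replicate 3 does, so it cannot show how the tests behave with one. Replicates differed by more than sampling noise (chi-square per degree of freedom 76.7 to 2405). Gene positions are from GENCODE 29 and sequences from RefSeq. The members and lists were chosen with earlier results of these data known. All members, the 3 most abundant other 14q32 arms and the 3 nearest patterns are named.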

Additional observations from a re-analysis of the deposited data

How the results depend on the processing

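The count of members called was 0 in the main analysis and 2 (both miR-136 arms, lower) without a filter on low counts, and ran from 0 to 2 when single libraries were left out, where resistant replicate 3 was the library that gave 2. Over all miRNAs, 32 calls became 21 with RLE factors, 162 without a filter, 14 with a minimum mean of 10 CPM, 149 with DESeq2, 73 with the GC correction, and 4 to 231 with 1 library left out. The median log2 fold change of the members (-0.14) was -0.029 with RLE factors, 0.031 with library totals, 0.23 with a minimum mean of 10 CPM (8 members), -0.044 with DESeq2, -0.54 with the GC correction and -0.19 to 0.12 with 1 library left out. The median over all tested miRNAs moved with the scaling too, from -0.11 with TMM factors to -0.0062 with RLE factors and 0.087 with library totals.

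Signs of values that were not called turned in 9 cases: miR-431-5p with library totals (0.068), a minimum mean of 10 CPM (0.042), without sensitive replicate 3 (0.19) and without resistant replicate 3 (0.058), with -0.18 to 0.19 over all libraries left out in turn; miR-432-3p without sensitive replicate 3 (0.061), resistant replicate 1 (0.081) or resistant replicate 2 (0.075), over a range of -0.22 to 0.081; miR-432-5p without resistant replicate 3 (-0.17, over a range of -0.17 to 1.18); and miR-127-3p with the GC correction (-0.51). The cause was not tested. The difference in the members' share of counts (0.29 percentage points) was 1.55 with miR-92a-3p out of the denominator and 0.22 to 0.35 with 1 library left out. Hairpins with a called arm ratio numbered 3, and 2 to 4 with 1 library left out, none of them among the 5 here in any setting. The labels do not say that a replicate number marks a shared culture or day, so the numbers were not taken to pair the libraries. Same-numbered libraries did not deviate together in every pair (r = -0.062, 0.26 and 0.13), but with 3 libraries per group these values cannot decide on pairing. With the replicate number as a block, 23 miRNAs and 0 members were called. Counts were lowest for miR-433-5p and miR-432-3p, at 7 to 48 per library, and what depth adds to their errors was not tested.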
